A study of Mus musculus with 3 samples.

Results

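A set of 8 genes that govern the G1 phase of the cell cycle was followed through the B cell stages of the spleen, the D cyclins Ccnd1, Ccnd2 and Ccnd3, their kinases Cdk4 and Cdk6, and the inhibitors Cdkn1b (p27), Cdkn2c (p18) and Cdkn2d (p19). These were taken by symbol from the gene list of the files, 8 of 32285 genes. Single-cell RNA was counted with a 10x 3′ kit in 3 libraries of splenic B cells taken 10 days after mice received sheep red blood cells, 1 library for each genotype. Igκ-BCL2 mice carry human BCL2, with its own promoters, knocked into the Igκ locus in place of the Jκ segments, and 3′RR-BCL2 mice carry a transgene, integrated at random, in which the core of the IgH 3′ regulatory region drives the same gene. WT mice carry neither, and the mice have a mixed B6 and 129 background. By the published methods every library came from magnetic negative selection of B cells, whereas the sample labels call the WT cells sorted and the cells of both BCL2 libraries whole tissue. The ages of these mice are not given in the labels. The files held 7034 barcodes in the Igκ-BCL2, 7579 in the 3′RR-BCL2 and 11269 in the WT library, with 37433924, 45539172 and 62777659 UMIs (unique molecular identifiers, each standing for 1 captured RNA molecule), and after filtering 6243, 6561 and 9932 cells remained, or 6254, 6570 and 9935 with the plasma cell-like cells that were exempt from part of the filter. Libraries shared 31 to 40 barcodes each with the others, at most 0.569% of a library. Levels are given in CPM, counts per 1000000 UMIs of the cells named. Xist reached 1719 CPM in the 3′RR-BCL2 library and at most 0.174 in the Igκ-BCL2 and WT libraries, and the Y-linked Ddx3y had the opposite pattern, so sex and genotype cannot be told apart for the 3′RR-BCL2 library, while the Igκ-BCL2 and WT libraries matched in both genes. As each genotype is 1 library, values between genotypes carry intervals that cover counting error only and no test, while stages were compared over the 3 libraries, whose spread also holds the genotype.

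D cyclins bind and switch on CDK4 and CDK6, which phosphorylate the retinoblastoma protein and thereby release E2F factors to start DNA replication. In B cells, cyclin D2 is known as the cyclin induced by antigen receptor signaling and cyclin D3 as the one that germinal center (GC) B cells rely on to divide. p18 and p19 belong to the INK4 family and block CDK4 and CDK6 themselves, and p27 holds back CDK2 complexes and is lost when resting lymphocytes enter the cycle.

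Each cell was placed in a stage by its summed markers, none of which is 1 of the 8 genes. The gates gave 180 activated-like cells in the Igκ-BCL2, 211 in the 3′RR-BCL2 and 465 in the WT library, marked by Myc and ribosome-building genes such as Srm and Ncl. Non-dividing GC-like cells, marked by genes such as S1pr2 and Mef2b, numbered 347, 694 and 50 in the same libraries, and GC-like cells with division markers such as Mki67 numbered 33, 147 and 54. Transitional-like cells numbered 209 in the Igκ-BCL2, 120 in the 3′RR-BCL2 and 288 in the WT library, marginal zone-like cells 52, 209 and 354, interferon-activated-like cells 139, 169 and 242, and plasma cell-like cells 26, 15 and 7. Follicular-like cells, the resting majority, numbered 4405, 4291 and 7829. The WT non-dividing GC level thus rests on 50 cells, and the plasma cell-like values, below 20 cells in 2 libraries, are levels without a test. Immunoglobulin genes gave 42.7% of the UMIs of plasma cell-like cells in the Igκ-BCL2, 32.2% in the 3′RR-BCL2 and 41.3% in the WT library. In the other stages they gave at most 2.41%, so the plasma cell-like CPM of other genes are lowered by comparison. T cell markers summed to at most 6.99 and myeloid markers to at most 3.02 CPM in these stages, apart from the interferon-activated-like cells, where Lyz2 was the leading gene and the myeloid list reached 1105 CPM in 1 library, so their values are levels only. Cells with B-1 markers were led by Ccl5, S100a6 and S100a4 and stayed unnamed. Their levels are not described, although their profiles were part of the edgeR fit and of the profile correlations. Among the 10 leading genes of the activated-like cells 2 were markers of the gate, Srm and C1qbp, and Ccnd2, which the gate did not use, ranked second.

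The 8 genes lie on 7 chromosomes of GRCm38, with Ccnd2 (chr6:127125162-127152193, minus strand) and Cdkn1b (chr6:134920401-134925513, plus strand) on the same one. The others are Ccnd1 (chr7:144929931-144939925, minus strand), Ccnd3 (chr17:47505051-47599691, plus strand), Cdk4 (chr10:127063534-127067920, plus strand), Cdk6 (chr5:3341485-3531008, plus strand), Cdkn2c (chr4:109660876-109667189, minus strand) and Cdkn2d (chr9:21288410-21291407, minus strand), all protein coding. Promoters from RefSeq (build GRCm38.p6), each running from 250 bases before to 50 bases after a transcript start, were matched by symbol for 6 of the 8 genes, 8 promoters in all. On both strands they were searched for CACGTG, the E-box that MYC and related factors can bind, for TTCCCGC, a core of E2F sites, and for GTAAACA, a core of forkhead sites, and no match of one overlapped another. The genes with a match changed between activated-like, GC-like and resting cells in the results that follow. A second Cdkn2c start, which held CACGTG, is not shown. Shown are 4 promoters, 1 for each of these genes, with the matched letters in capitals and each written 5′ to 3′ on the strand of its gene. They are those of Cdk4 (chr10:127063285-127063584, plus strand), Cdk6 (chr5:3343643-3343942, plus strand), Cdkn2c (chr4:109666707-109667006, minus strand) and Ccnd3 (chr17:47504801-47505100, plus strand).
Cdk4: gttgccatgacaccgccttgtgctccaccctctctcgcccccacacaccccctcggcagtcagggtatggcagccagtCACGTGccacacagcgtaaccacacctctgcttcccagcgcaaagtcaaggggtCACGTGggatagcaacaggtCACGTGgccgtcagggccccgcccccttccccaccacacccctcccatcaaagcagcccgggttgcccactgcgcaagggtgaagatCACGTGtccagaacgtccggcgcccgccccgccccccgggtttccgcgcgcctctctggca
Cdk6: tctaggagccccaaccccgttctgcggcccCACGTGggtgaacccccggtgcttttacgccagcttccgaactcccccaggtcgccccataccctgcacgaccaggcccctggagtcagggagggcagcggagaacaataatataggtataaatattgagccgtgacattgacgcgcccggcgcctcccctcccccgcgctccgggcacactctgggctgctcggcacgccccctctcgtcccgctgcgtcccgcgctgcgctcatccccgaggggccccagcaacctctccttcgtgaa
Cdkn2c: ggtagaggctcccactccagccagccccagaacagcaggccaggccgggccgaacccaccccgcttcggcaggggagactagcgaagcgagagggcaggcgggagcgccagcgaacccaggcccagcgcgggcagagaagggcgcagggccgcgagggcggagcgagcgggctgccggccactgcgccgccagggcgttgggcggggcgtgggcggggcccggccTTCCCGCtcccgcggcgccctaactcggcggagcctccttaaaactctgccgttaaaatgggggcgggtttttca
Ccnd3: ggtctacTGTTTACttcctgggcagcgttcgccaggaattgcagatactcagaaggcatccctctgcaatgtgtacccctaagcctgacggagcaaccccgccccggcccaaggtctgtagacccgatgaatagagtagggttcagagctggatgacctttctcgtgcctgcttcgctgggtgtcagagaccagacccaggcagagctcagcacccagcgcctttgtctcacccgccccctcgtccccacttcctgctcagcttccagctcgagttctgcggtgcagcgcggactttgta
The Cdk4 promoter held CACGTG 4 times, as did 8 of 32851 promoters of the same length, 0.0244% of them. Cdk6 held it 1 time, like a second Cdkn2c start, and 7.15% of all promoters held it at least 1 time. The Cdkn2c promoter shown held TTCCCGC 1 time, which 4.60% of promoters did, and that of Ccnd3 held the forkhead core 1 time, read as TGTTTAC on this strand, which 3.65% did. A second Ccnd3 start and the promoters of Cdkn1b and Cdkn2d held none of the 3 motifs. A match describes the letters and shows no binding.

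Among the cyclins, Ccnd2 was the one of activated-like cells. It had 205 CPM in the Igκ-BCL2, 225 in the 3′RR-BCL2 and 254 in the WT library in activated-like cells, against 23.8, 32.1 and 43.4 in follicular-like cells of the same libraries. Every activated-like value was above every value of any other stage. The rise was 2.87 on the log2 scale (SE 0.13, n = 3 libraries, adjusted p = 7.11e-22, edgeR quasi-likelihood test with Benjamini-Hochberg adjustment over all genes, as for every adjusted p here). In transitional-like cells, the youngest in the spleen, Ccnd2 had 57.8 CPM in the Igκ-BCL2, 99.7 in the 3′RR-BCL2 and 127 in the WT library, above the follicular-like cells of each library and higher by 1.45 on the log2 scale (SE 0.17, adjusted p = 2.43e-08). Marginal zone-like cells held 30.2, 49.9 and 56.5 CPM in those libraries, a log2 difference of 0.55 over follicular-like cells (SE 0.18, adjusted p = 0.0275) that lost its call without the 3′RR-BCL2 library (adjusted p = 0.337) or the WT library (adjusted p = 0.0834), and also with DESeq2 (adjusted p = 0.467) and 3 other settings. The plasma cell-like cells had 69.3 to 82.4 CPM.

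Ccnd2 was scarce in dividing GC-like cells. They held 0 Ccnd2 UMIs in the Igκ-BCL2, 10 in the 3′RR-BCL2 and 2 in the WT library, that is 0, 6.87 and 4.03 CPM, and the 0 allows up to 10.5 CPM. The non-dividing ones had 3.11 CPM in the Igκ-BCL2, 16.1 in the 3′RR-BCL2 and 35.8 in the WT library, from 8, 79 and 17 UMIs. Each was below the follicular-like level of its own library, although the WT value overlapped the follicular-like range of the 3 libraries. The ratio to follicular-like cells was 0.130 in the Igκ-BCL2 and 0.502 in the 3′RR-BCL2 library, with intervals below 1. In WT it was 0.824 with an interval of 0.479 to 1.32, which includes 1, so counting error alone could give the WT drop. Over the 3 libraries the log2 difference was -1.30 (SE 0.22, adjusted p = 5.8e-06). Between dividing and non-dividing GC-like cells the log2 difference was -1.43 (SE 0.57, adjusted p = 0.0676), which missed the threshold.

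Between activated-like and GC-like cells, Ccnd3 ran the other way. It had 126 CPM in the Igκ-BCL2, 141 in the 3′RR-BCL2 and 157 in the WT library in dividing GC-like cells, its highest mean of the 8 stages. The log2 difference of dividing over non-dividing GC-like cells missed the threshold (0.30, SE 0.14, adjusted p = 0.111). It was called with the looser cell filter or lowered gate limits. Transitional-like cells had the next highest mean, as they did for Ccnd2, at 117, 110 and 126 CPM in these libraries. Their range overlapped that of dividing GC-like cells, and their log2 difference of 0.31 over follicular-like cells missed the threshold (SE 0.11, adjusted p = 0.0724). In non-dividing GC-like cells the values were 111, 119 and 92.6 in these libraries, against 89.9, 78.7 and 100.5 in follicular-like cells. The non-dividing GC-like level was thus above the follicular-like one in both BCL2 libraries and below it in WT. The log2 difference of 0.36 (SE 0.10, adjusted p = 0.00328) lost its call without the 3′RR-BCL2 library (adjusted p = 0.338) and without the library term (adjusted p = 0.125). Activated-like cells held 42.3 CPM in the Igκ-BCL2, 51.5 in the 3′RR-BCL2 and 61.6 in the WT library, each below every follicular-like value, with a log2 difference of -0.68 (SE 0.11, adjusted p = 2.84e-06). Marginal zone-like cells were also lower than follicular-like cells, at 85.7, 49.4 and 56.9 CPM in those libraries and a log2 difference of -0.61 (SE 0.12, adjusted p = 0.000253), a call lost without WT (adjusted p = 0.0886). The lowest mean stood in the plasma cell-like cells, with 13, 3 and 2 UMIs in the 3 libraries.

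Ccnd1, the D cyclin of many other tissues, was near the limit of detection. Over all cells it had 114 UMIs in the Igκ-BCL2, 90 in the 3′RR-BCL2 and 107 in the WT library, and follicular-like cells held 2.06, 1.75 and 1.81 CPM. No 2 stages that were neighbors in the order of its means had ranges that did not overlap, and it did not pass the filter on low counts, so it was not tested. In each library 3 cells with at least 3 Ccnd1 UMIs held 37, 11 and 10 of those UMIs, and in these cells the myeloid gene Tyrobp stood at 1678, 686 and 2061 CPM, against 18.8, 28.7 and 43.1 in the other cells of the same library. The whole myeloid list summed to 1037, 797 and 0 CPM in them, against 0.346, 9.08 and 43.7 CPM in the other cells, so in WT the list did not go with Tyrobp. The part of such cells in the Ccnd1 level was not tested.

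**Figure D1:**
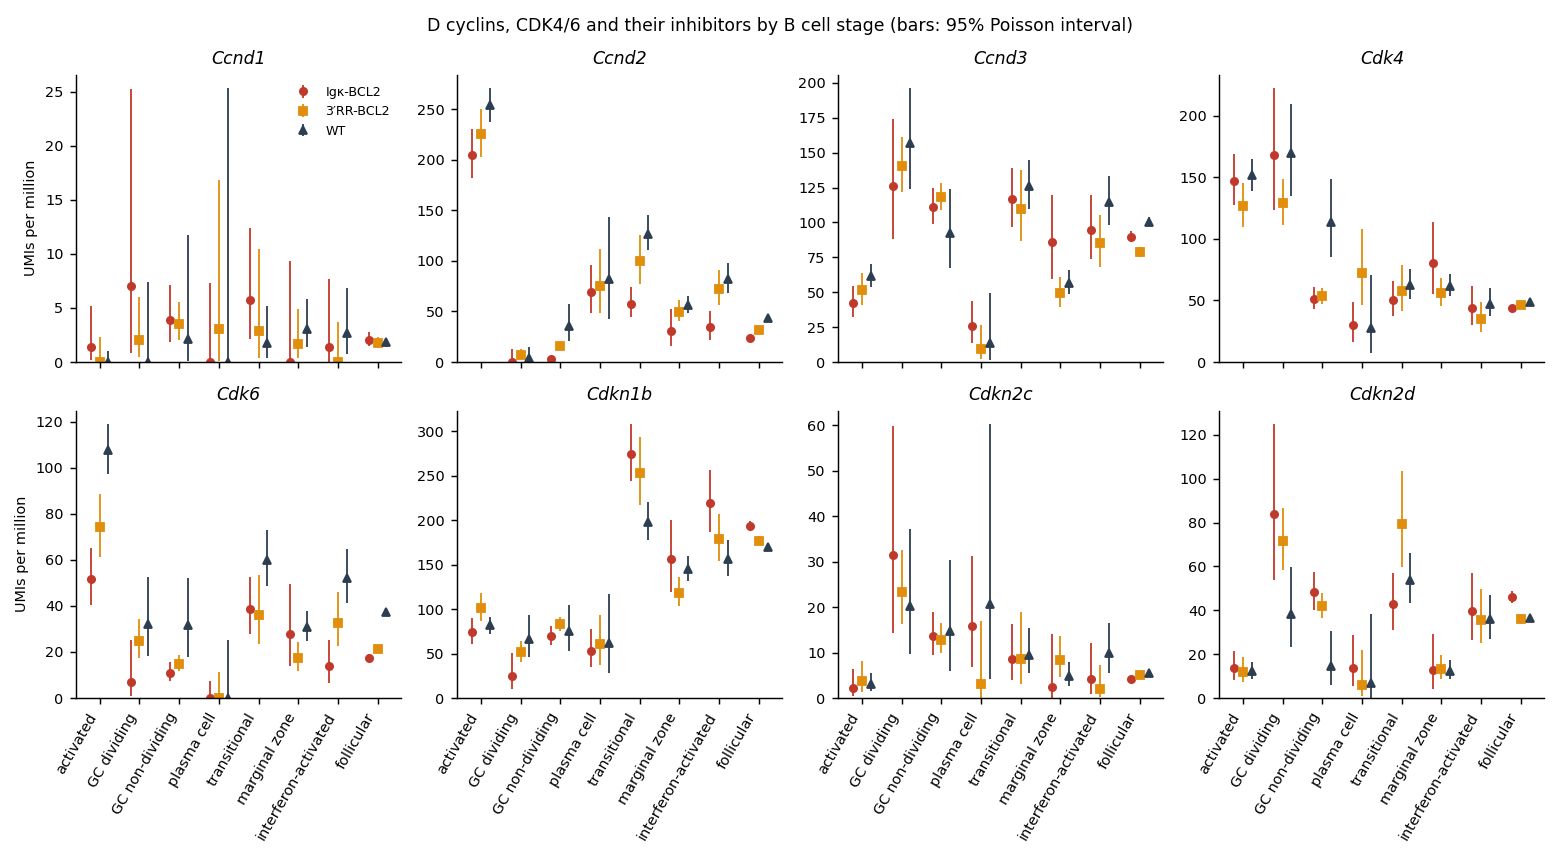
Level of each of the 8 genes (CPM, linear axis from 0) in 8 B cell stages, with 1 point for each library and its 95% Poisson interval. Ccnd2 stands at 205 to 254 in activated-like cells and at 0 to 6.87 in dividing GC-like cells, while Ccnd3 stands at 42.3 to 61.6 and at 126 to 157 there.

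Read as a share, the UMIs of Ccnd3 among those of Ccnd2 and Ccnd3 together separated the activated from the GC stage. The share was 97.3% in the Igκ-BCL2 library (95% Clopper-Pearson interval 94.7 to 98.8), 88.0% in the 3′RR-BCL2 library (85.3 to 90.4) and 72.1% in the WT library (59.2 to 82.9) for non-dividing GC-like cells. For activated-like cells it was 17.1% (13.3 to 21.5), 18.6% (15.1 to 22.5) and 19.5% (17.3 to 22.0) in the Igκ-BCL2, 3′RR-BCL2 and WT libraries. This level moved with the gate, to 32.4%, 30.7% and 29.6% with lowered limits and to 6.39%, 9.96% and 11.02% with raised limits in the same libraries. The lowest GC-like value was far above the highest activated-like value, and the difference was 80.2, 69.4 and 52.6 percentage points in these libraries, 67.4 ± 13.9 on average (SD, n = 3). An exact paired test of 3 libraries cannot go below p = 0.25. Follicular-like cells lay between, at 79.0%, 71.0% and 69.8%, so that the activated-like share was lower by 54.9 ± 6.20 points (SD, n = 3), whereas non-dividing GC-like cells exceeded them by 18.2 points in the Igκ-BCL2, 17.0 in the 3′RR-BCL2 and 2.29 in the WT library, the last within its counting error. In WT this order turned with lowered gate limits, at 60% in non-dividing GC-like against 71.7% in follicular-like cells, and in the mean over single cells, at 75.0% from 8 cells against 76.9%. Dividing GC-like cells reached 100%, 95.3% and 97.5%, from 36, 205 and 78 Ccnd3 UMIs. In the order of the mean shares, the step between transitional-like (66.8%, 52.4% and 49.9%) and activated-like cells was the one whose ranges did not overlap. Plasma cell-like cells overlapped the activated-like range, at 27.1% in the Igκ-BCL2, 10.7% in the 3′RR-BCL2 and 14.3% in the WT library. Those shares rest on 48, 28 and 14 UMIs of Ccnd2 and Ccnd3 together. A UMI counts a molecule at its 3′ end whatever its length, but capture may differ between genes, so the share is compared between stages and not read as a ratio of molecules.

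**Figure D2:**
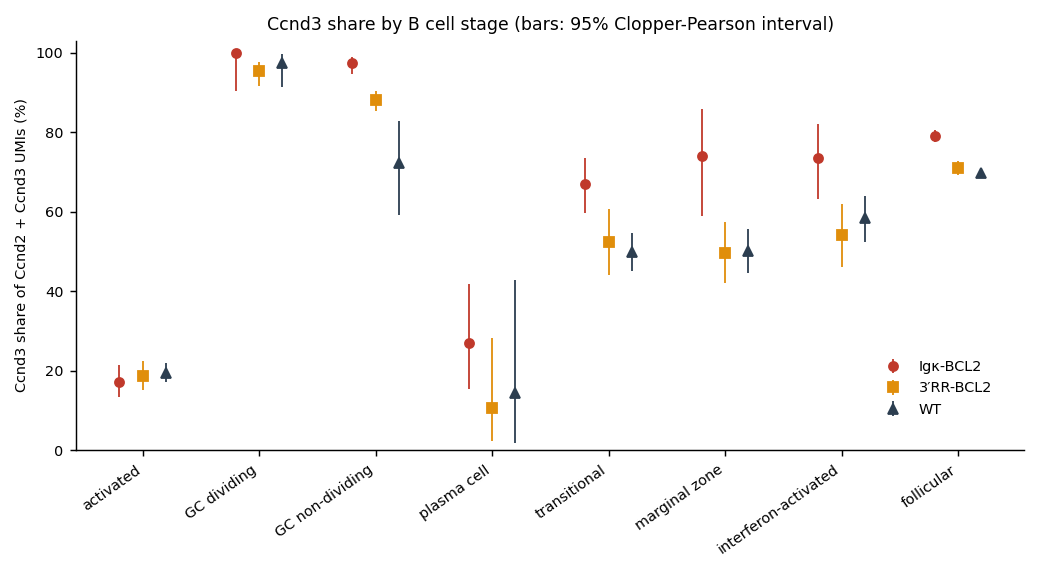
Ccnd3 UMIs as a percentage of Ccnd2 and Ccnd3 UMIs in 8 B cell stages, with 1 point for each library and its 95% Clopper-Pearson interval. Activated-like cells sit at 17.1 to 19.5% and dividing GC-like cells at 95.3 to 100%, with follicular-like cells at 69.8 to 79.0%.

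The share was also read in clusters, of which the activated one was picked by its gated cells. In clusters made within each library without the 8 genes, GC-like clusters held 92.7% in the Igκ-BCL2, 88.3% in the 3′RR-BCL2 and 78.6% in the WT library. The cluster of each library in which activated-like was the most common gate held 21.5%, 14.9% and 21.7%, a choice made after the clusters were seen. Activated-like cells made up only 48.9% (WT) to 51.3% (3′RR-BCL2) of these clusters, so the values also rest on cells of other gates. Single cells seldom showed both cyclins. With each cell thinned to 2000 UMIs, 0 of 180 activated-like cells had both in the Igκ-BCL2, 4 of 210 in the 3′RR-BCL2 and 17 of 461 in the WT library, and 0 of 32, 0 of 143 and 0 of 52 dividing GC-like cells did, with upper Clopper-Pearson limits of 10.9%, 2.55% and 6.85%. As only 0, 1 and 0 of those dividing cells held a Ccnd2 UMI, their joint counts could hardly be above 0. They do not bear on whether both cyclins go together. The product of the separate shares gave 1.34%, 2.20% and 3.29% for activated-like cells, against 0%, 1.90% and 3.69% counted, and the 95% intervals of the counted shares include the product in each library. A Ccnd2 UMI was found in 16.1%, 24.3% and 27.1% of thinned activated-like cells in the Igκ-BCL2, 3′RR-BCL2 and WT libraries, against 3.16%, 4.58% and 5.78% of follicular-like cells and 0%, 0.699% and 0% of dividing GC-like cells. Without thinning these were 34.4%, 44.5% and 52.3% of activated-like cells, whose median depth was 6416 to 7022 UMIs, and 0%, 4.76% and 1.85% of dividing GC-like cells, whose median depth was higher, at 8406 to 10163 UMIs.

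Cdk4, the kinase partner of D cyclins that is expressed most widely, was high in the stages with either cyclin at its peak. Activated-like cells had 147 CPM in the Igκ-BCL2, 126 in the 3′RR-BCL2 and 152 in the WT library, and dividing GC-like cells had 168, 129 and 169, whereas follicular-like cells had 43.9, 46.1 and 49.0. The activated-like and dividing GC-like ranges overlapped each other and no follicular-like value. The log2 difference was 1.68 for activated-like over follicular-like cells (SE 0.11, adjusted p = 2.4e-17) and 1.28 for dividing over non-dividing GC-like cells (SE 0.16, adjusted p = 1.18e-08). Non-dividing GC-like cells held 51.3, 53.3 and 114 CPM in the Igκ-BCL2, 3′RR-BCL2 and WT libraries, and their log2 difference of 0.37 over follicular-like cells (SE 0.12, adjusted p = 0.0132) lost its call without the WT library (adjusted p = 0.191), with lowered gate limits (adjusted p = 0.146) or without the library term (adjusted p = 0.0609). The 0.45 of marginal zone-like over follicular-like cells (SE 0.13, adjusted p = 0.0127) lost its call without the Igκ-BCL2 (adjusted p = 0.089) or the 3′RR-BCL2 library (adjusted p = 0.113) and without the library term (adjusted p = 0.0651).

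Cdk6, the sister kinase, had its highest mean in the same stage as Ccnd2. Activated-like cells had 51.6 CPM in the Igκ-BCL2, 74.1 in the 3′RR-BCL2 and 108 in the WT library, against 17.3, 21.2 and 37.2 in follicular-like cells, a log2 difference of 1.70 (SE 0.11, adjusted p = 2.03e-16). Transitional-like cells, at 38.9, 36.1 and 59.9, were higher than follicular-like cells by 0.76 (SE 0.15, adjusted p = 0.00048), and this call was lost without the library term (adjusted p = 0.177). Non-dividing GC-like cells stood at 10.9, 14.9 and 31.6 CPM in the Igκ-BCL2, 3′RR-BCL2 and WT libraries, below the follicular-like level of each library, with a log2 difference of -0.56 (SE 0.16, adjusted p = 0.00467) that lost its call without the 3′RR-BCL2 library (adjusted p = 0.162), with lowered gate limits (adjusted p = 0.0642) or without the library term (adjusted p = 0.0866). Dividing GC-like cells had 6.99, 24.7 and 32.3, from 2, 36 and 16 UMIs, and did not pass the test against non-dividing ones (log2 difference 0.49, SE 0.27, adjusted p = 0.203). In plasma cell-like cells no Cdk6 UMI was found, which allows up to 5.94 CPM in the Igκ-BCL2, 9.07 in the 3′RR-BCL2 and 20.6 in the WT library.

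Of the brakes, Cdkn1b was low in activated-like and in GC-like cells. It had 74.6 CPM in the Igκ-BCL2, 101 in the 3′RR-BCL2 and 81.6 in the WT library in activated-like cells and 69.9, 82.9 and 75.8 in non-dividing GC-like cells, against 193, 177 and 170 in follicular-like cells. No activated-like or GC-like value reached any follicular-like one, and the log2 differences were -0.98 (SE 0.12, adjusted p = 2.45e-09) and -1.26 (SE 0.12, adjusted p = 1.03e-11). Dividing GC-like cells had 24.5, 51.5 and 66.5 CPM in the Igκ-BCL2, 3′RR-BCL2 and WT libraries, a log2 difference of -0.59 from non-dividing ones (SE 0.20, adjusted p = 0.0285), a call lost without the Igκ-BCL2 (adjusted p = 0.0579) or the 3′RR-BCL2 library (adjusted p = 0.435). The highest mean stood in transitional-like cells, at 275, 253 and 198, whose log2 difference of 0.33 over follicular-like cells missed the threshold (SE 0.11, adjusted p = 0.055).

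Cdkn2d, whose product p19 varies through the cycle in cultured cells, had its lowest means in plasma cell-like, activated-like and marginal zone-like cells and its highest in dividing GC-like cells. Transitional-like cells came next, at 42.7 CPM in the Igκ-BCL2, 79.5 in the 3′RR-BCL2 and 54.0 in the WT library. Their range overlapped that of dividing GC-like cells, and they were higher than those in the 3′RR-BCL2 and WT libraries. Plasma cell-like cells had 13.9 CPM in the Igκ-BCL2, 6.05 in the 3′RR-BCL2 and 6.86 in the WT library. These values are lowered by immunoglobulin UMIs, so their order against activated-like and marginal zone-like cells is not read. Activated-like cells had 13.6 CPM in the Igκ-BCL2, 11.9 in the 3′RR-BCL2 and 12.2 in the WT library, and marginal zone-like cells had 12.6, 13.3 and 12.5, against 46.1, 36.0 and 36.3 in follicular-like cells. The activated-like and marginal zone-like levels were close to each other and below every follicular-like value, with log2 differences of -1.53 (SE 0.19, adjusted p = 4.9e-09) and -1.47 (SE 0.21, adjusted p = 5e-07). Dividing GC-like cells held 83.9, 71.4 and 38.3 CPM in the Igκ-BCL2, 3′RR-BCL2 and WT libraries, above the non-dividing ones of each library (48.2, 41.8 and 14.7) and higher by 0.68 on the log2 scale (SE 0.20, adjusted p = 0.0114). That call was lost without the 3′RR-BCL2 library (adjusted p = 0.336), with lowered gate limits (adjusted p = 0.261) or without the library term (adjusted p = 0.0776). Cdkn2c, which mice need for plasma cells to leave the cycle, rose in the GC. It had 13.6, 12.9 and 14.7 CPM in non-dividing GC-like cells of the Igκ-BCL2, 3′RR-BCL2 and WT libraries, against 4.08, 4.97 and 5.47 in follicular-like cells, a log2 difference of 1.47 (SE 0.24, adjusted p = 2.64e-06). Its values in dividing GC-like cells were 31.5, 23.3 and 20.2, above every non-dividing value, but from 9, 34 and 10 UMIs, and the log2 difference of 0.76 missed the threshold (SE 0.32, adjusted p = 0.0787).

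Counted over the genes, 7 of the 8 passed the filter on low counts. Against follicular-like cells, activated-like cells had 3 of the 7 higher (Ccnd2, Cdk4, Cdk6) and 3 lower (Ccnd3, Cdkn1b, Cdkn2d), where 49.2% of the 9743 genes tested were called, 26.0% higher and 23.3% lower. Non-dividing GC-like cells had 3 higher (Ccnd3, Cdk4, Cdkn2c) and 3 lower (Ccnd2, Cdk6, Cdkn1b), beside 43.9% of all genes (22.7% higher, 21.2% lower). Dividing over non-dividing GC-like cells had 2 higher (Cdk4, Cdkn2d) and 1 lower (Cdkn1b), beside 22.3% (12.4% higher, 9.93% lower). Transitional-like cells had 2 higher (Ccnd2, Cdk6) and 0 lower, beside 9.95% (5.04% higher, 4.91% lower). By edgeR at an unadjusted p under 0.05, 6 of the 7 were higher there and 0 lower, and DESeq2 also called 0 lower. The shares of all genes given here are for an adjusted p, so the 6 of 7 cannot be set against them. Marginal zone-like cells had 2 higher (Ccnd2, Cdk4) and 2 lower (Ccnd3, Cdkn2d), beside 17.6% (9.61% higher, 7.97% lower). Where so many genes were called, the number of these genes called says little about them. Ccnd2, Ccnd3, Cdk6 and Cdkn2d were called in both directions over the contrasts, Cdk4 and Cdkn2c only higher and Cdkn1b only lower.

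**Figure D3:**
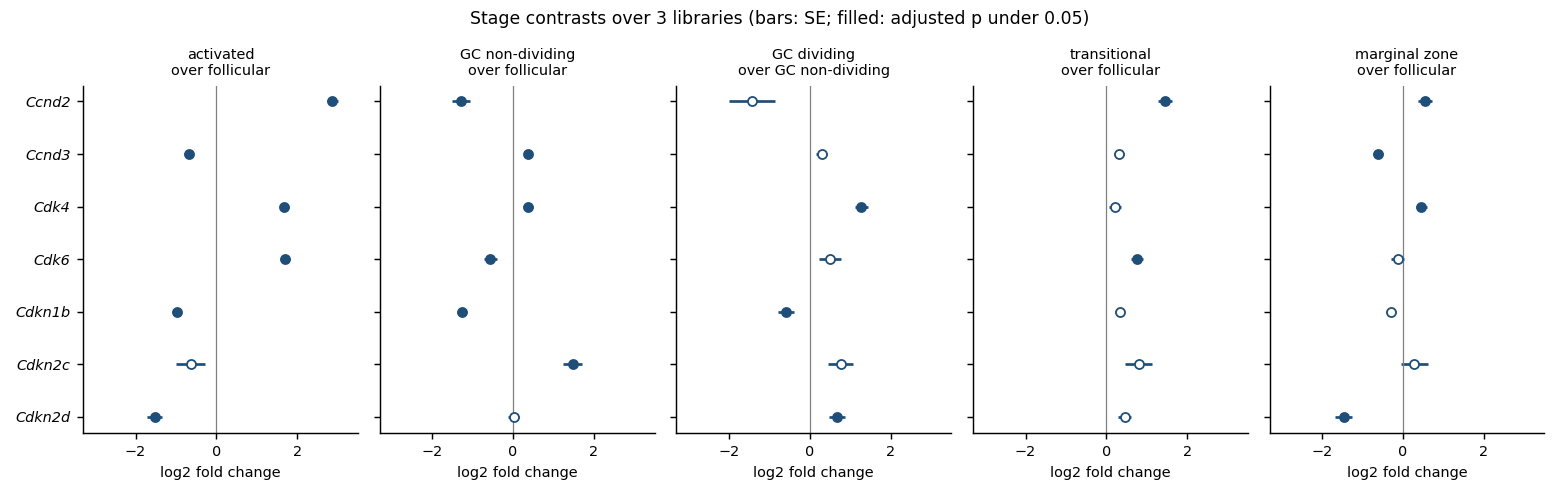
Log2 fold change of 7 of the genes (rows) in 5 stage contrasts (panels) over 3 libraries, with bars of 1 SE and filled points for an adjusted p under 0.05. Ccnd2 stands at 2.87 in activated-like and at -1.30 in non-dividing GC-like cells over follicular-like cells, and Cdkn1b at -0.98 and -1.26 there.

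The gate of the activated-like cells cuts a continuous score, with 288 Igκ-BCL2, 412 3′RR-BCL2 and 596 WT cells lying between 0.8 times the limit and the limit. Levels were therefore also read across 7 bins of that score, over cells outside the GC and plasma cell gates. Ccnd2 stood at 12.9 CPM in the Igκ-BCL2, 27.3 in the 3′RR-BCL2 and 27.4 in the WT library in the lowest bin and at 426, 535 and 445 in the highest. Ccnd3 stood at 98.3, 88.9 and 112 CPM in those libraries in the lowest bin and at 12.3, 20.1 and 36.3 in the highest. In every library Ccnd2 lay below Ccnd3 in the 3 lowest bins and above it in the 3 highest. Cdk4 stood at 41.9, 39.8 and 43.7 CPM in the lowest bin of the Igκ-BCL2, 3′RR-BCL2 and WT libraries and at 222, 177 and 233 in the highest, and Cdk6 at 11.6, 15.9 and 34.6 and then at 95.6, 107 and 157. Cdkn2d stood at 51.8, 40.1 and 40.6 CPM in the lowest bin and at 3.08, 3.35 and 7.03 in the highest. Cdkn1b was lower in each successive bin of every library, except in the highest Igκ-BCL2 bin of 40 cells, where it was 102 after 48.8 in the bin before. Median depth was 3907 to 4015 UMIs in the lowest and 6842 to 7576 in the highest bin, its part was not tested, and bins of a library are no replicates.

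**Figure D4:**
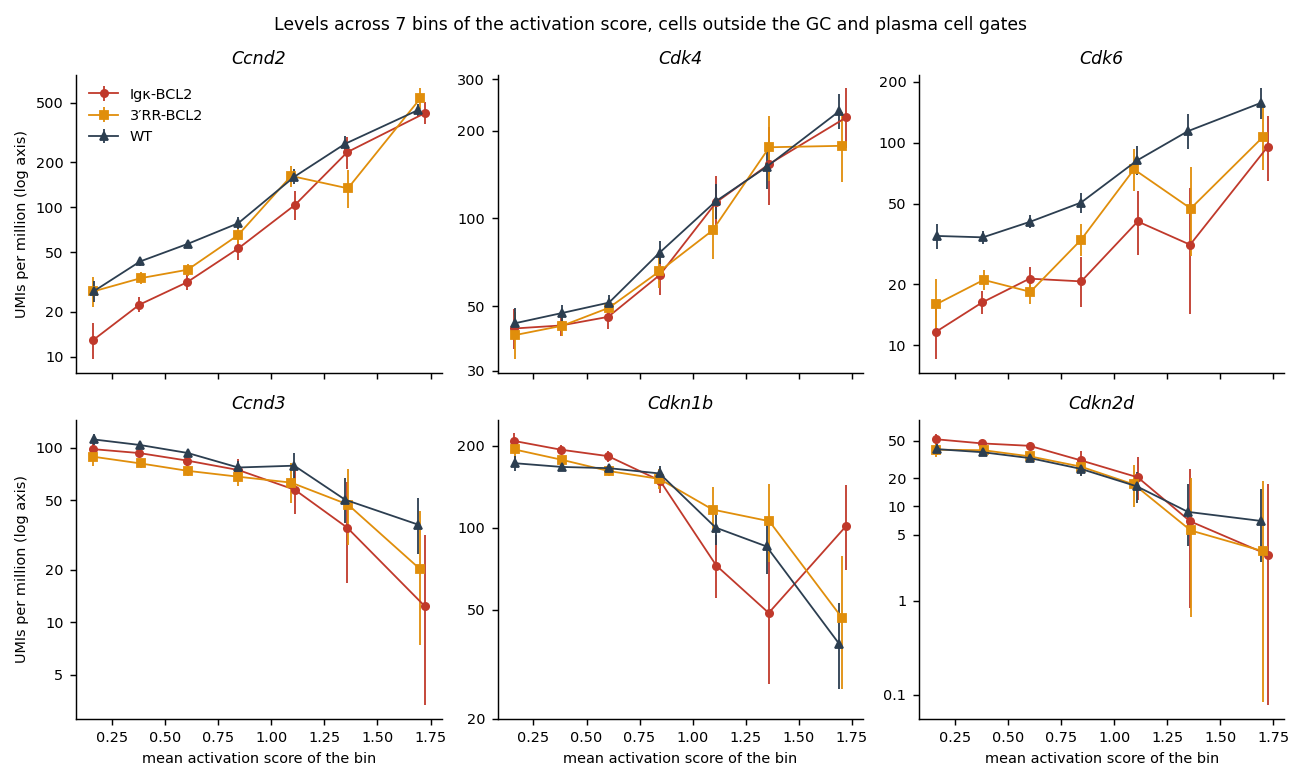
Levels of 6 genes (CPM, log axis) in 7 bins of the activation score (x axis, mean score of the bin) for each library, with 95% Poisson intervals. Ccnd2 climbs to 426 to 535 and Ccnd3 drops to 12.3 to 36.3 in the highest bin, which holds 40, 37 and 102 cells of the Igκ-BCL2, 3′RR-BCL2 and WT libraries.

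The wider G1 network was read from 30 other genes, of which 27 were tested (Cdkn1c, Cdkn2a and Cdkn2b were too low). Of all genes tested, 26.0% were called higher in activated-like than in follicular-like cells and 23.3% lower, and of the 27 listed 6 rose and 10 fell. The median log2 difference of the list was -0.21, against -0.01 for all genes. Those that rose were led by Cks1b, a CDK-binding subunit (1.86), E2f6, a repressive E2F (1.23), and Cdc25a, the phosphatase that activates CDKs (1.05), and those that fell by Cdkn1a, the p21 inhibitor (-1.29), Rbl2, a retinoblastoma relative of resting cells (-1.09), and the forkhead factor Foxo3 (-0.87). Beside 22.7% of all genes called higher and 21.2% lower, non-dividing GC-like over follicular-like cells had 9 of the list that rose and 6 that fell. The median was 0.32, against -0.01 for all genes. Cdkn3, a CDK phosphatase (2.62), E2f1, an activating E2F (2.07), and Cdk1, the mitotic kinase (1.66), led those that rose, and Cdkn1a (-2.19), Rb1, the retinoblastoma gene itself (-1.91), and Klf2, a factor of lymphocyte quiescence (-1.59), those that fell. The division markers of the gate summed to 687 CPM in the Igκ-BCL2, 677 in the 3′RR-BCL2 and 741 in the WT library in these non-dividing cells, against 403, 373 and 354 in follicular-like cells, and their part in the rises was not tested. In dividing over non-dividing GC-like cells 12.4% of all genes were called higher and 9.93% lower. Of the list 15 rose there, led by E2f8 (6.18), Ccna2, a cyclin of S phase and mitosis (5.96), and Cdk1 (5.61). Another 5 fell, led by Klf2 (-1.16) and the antiproliferative Btg1 (-0.82) and Tob1 (-0.72), and the median was 1.24 against -0.05. The dividing cells were gated on genes of the same cycle, so the size of those rises is a description of the gate. Transitional-like cells had 6 that rose, among them E2f8 (3.92), Ccna2 (2.10) and E2f1 (1.63), and 1 that fell, Klf2 (-0.34), with a median of 0.25 against 0.01, and their division markers summed to 402 to 604 CPM, against 354 to 403 CPM in follicular-like cells. Of all genes, 5.04% were called higher there and 4.91% lower. Marginal zone-like cells had 2 that rose, Cdc25a (0.87) and Rb1 (0.37), and 4 that fell, led by E2f5 (-0.86), Klf2 (-0.56) and Btg2 (-0.45), with a median of -0.17 against 0.00. Among all genes 9.61% were called higher there and 7.97% lower. Where a count of the list is near the share of all genes, it says little about the list.

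Between libraries the same stage was compared by ratios, where the pair of libraries held 50 UMIs or more of a gene. The clearest gap was in follicular-like cells, where Cdk6 and Ccnd2 were both lower in the BCL2 libraries. Cdk6 in them was at 17.3 CPM in the Igκ-BCL2 and 21.2 in the 3′RR-BCL2 library, against 37.2 in WT, ratios of 0.465 (95% interval 0.416 to 0.519) and 0.570 (0.515 to 0.629). Ccnd2 gave 0.549 (0.498 to 0.604) for Igκ-BCL2 over WT and 0.740 (0.680 to 0.805) for 3′RR-BCL2 over WT. Thus 2 of 8 ratios were past 1.5-fold for Igκ-BCL2, where 10.3% of all genes were, and 1 of 8 for 3′RR-BCL2, where 5.91% were. In activated-like cells Cdk6 again gave 0.479 (0.367 to 0.618) and 0.688 (0.555 to 0.848) for the Igκ-BCL2 and 3′RR-BCL2 libraries over WT, and 1 and 0 of 6 ratios were past 1.5-fold, beside 10.4% and 7.88% of all genes, and in the bins of the activation score the WT library had the highest Cdk6 level in all 7. Ccnd2 differed less there, at 0.807 (0.704 to 0.923) and 0.888 (0.783 to 1.0), and the Igκ-BCL2 ratio was 1.16 with a looser cell filter that admits cells above 20000 UMIs. Cdkn1b stayed within 1.24-fold in both stages. With 1 library each, genotype and library cannot be told apart, and for 3′RR-BCL2 over WT sex cannot be either, whereas the Igκ-BCL2 and WT libraries had the same Xist and Ddx3y pattern.

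In non-dividing GC-like cells Cdk4 was at 51.3 CPM in the Igκ-BCL2 and 53.3 in the 3′RR-BCL2 library, against 114 in WT, ratios of 0.451 (0.326 to 0.631) and 0.469 (0.348 to 0.640), and Cdkn2d was at 48.2 and 41.8, against 14.7 in WT, ratios of 3.27 (1.54 to 8.30) and 2.84 (1.35 to 7.15), the WT value from 7 UMIs. Ccnd2 and Cdk6 were also past 1.5-fold for 3′RR-BCL2, at 0.451 (0.264 to 0.812) and 0.472 (0.268 to 0.886). Many genes were past 1.5-fold in the same cells, 24.7% for Igκ-BCL2 and 23.5% for 3′RR-BCL2. The activation markers of the gate summed to 1703 CPM in the Igκ-BCL2 and 1781 in the 3′RR-BCL2 library, against 2469 in WT in these cells, while the GC markers were alike at 1809, 1903 and 1934. The part of that difference in the Cdk4, Ccnd2 and Cdkn2d ratios was not tested. In dividing GC-like cells Cdkn2d was again higher in 3′RR-BCL2 than in WT (1.86, 1.14 to 3.22), beside 15.3% of all genes past 1.5-fold, and Cdk4 (0.762, 0.586 to 0.998) and Ccnd3 (0.895, 0.686 to 1.18) lay closer to 1. For Igκ-BCL2 over WT in these cells, where 16.6% of all genes were past 1.5-fold, Ccnd3 was at 0.80 (0.524 to 1.20) and Cdk4 at 0.991 (0.680 to 1.43).

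**Figure D5:**
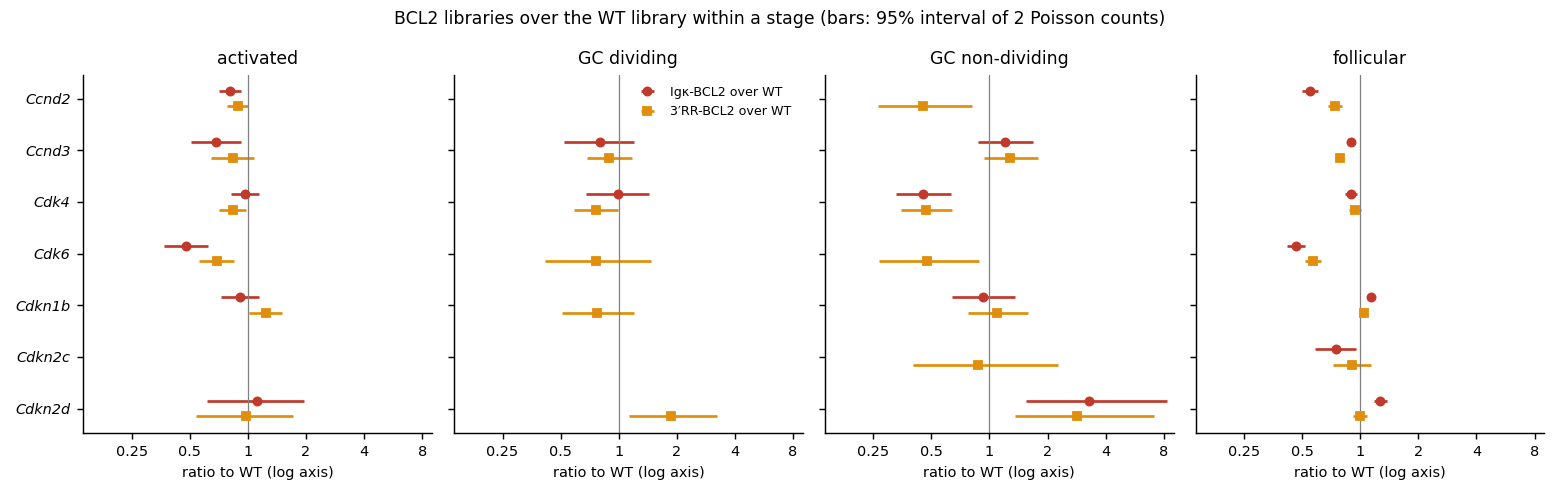
Ratio of each BCL2 library to the WT library (log axis, line at 1) for 7 genes in 4 stages, with 95% intervals from both counts, shown where the pair holds at least 50 UMIs. Follicular-like Cdk6 sits at 0.465 and 0.570, and non-dividing GC-like Cdkn2d at 3.27 and 2.84 with wide intervals.

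Genes whose profile over the 24 library and stage profiles was most like that of Ccnd2 were Cyba, an NADPH oxidase subunit (Pearson r = 0.91), Hivep1 (0.88), the chaperone Hsp90b1 (0.87), the membrane linker Ezr (0.87) and Arhgap24 (0.83), among 5881 genes with a mean of at least 20 CPM. For Ccnd3 they were Cdc25b, a phosphatase that activates CDKs at mitosis (0.92), the receptor kinase Grk2 (0.89), Paip2 (0.88), Fam117a (0.86) and Mtss1 (0.85). Ccnd2 against Ccnd3 gave -0.58, and Ccnd2 against Cdk6 gave 0.76. These are descriptions of profiles that share 3 libraries and their depths. The profiles include those of cells with B-1 markers and leave out the plasma cell-like ones. Myeloid markers reached 754 CPM in the former and 1105 CPM in interferon-activated-like profiles, and their part was not tested.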

How the data were processed

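Raw UMI counts, deposited by the authors per gene for each barcode that Cell Ranger 6.1.1 called as a cell, were aligned to mm10 per the labels. Following the limits of the published methods, a cell needed between 800 and 4500 genes, no more than 20000 UMIs, no more than 8% of UMIs from mitochondria and 10% or more from ribosomal protein genes. Cells in which Cd3 or C1q genes summed to 2 or more UMIs were removed. The plasma cell-like gate came first and was not held to the upper limits or the ribosomal minimum. No doublet caller was run, and doublets were limited by the gene and UMI maximums, from which plasma cell-like cells were exempt, and by the Cd3 and C1q limit. Gates used the mean of log1p UMIs per 10000, without immunoglobulin genes, over 5 to 16 markers a stage. The genes and lists were chosen with earlier results of these data known, and gate limits from the score distributions. Named genes were the 8, the 3 highest and 3 lowest called of the G1 list, and the 5 nearest profiles of Ccnd2 and Ccnd3 on log2(CPM + 10).

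Counts were summed per library and stage (24 profiles) and fitted in edgeR 4.0.16 (R 4.3.3) by quasi-likelihood with TMM and filterByExpr. The library was a block, since the stages of a library come from the same mouse preparation. Calls were made at an adjusted p under 0.05. DESeq2 1.42.0 was an alternative. The script was tested on simulated data. Clusters were made in scanpy 1.11.5 with 20 principal components, 15 neighbors and a Leiden resolution of 1. Intervals are at 95% (exact Poisson or Clopper-Pearson) and cover counting error only, and a count of 0 was taken to allow 3 UMIs. Gene coordinates came from the GENCODE annotation of GRCm38.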

Additional observations from a re-analysis of the deposited data

Results flagged for a closer look

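For the contrast of non-dividing GC-like over follicular-like cells, 2 of the genes moved one way in the WT library and the other way in both BCL2 libraries. Ccnd3 had ratios of 1.24 (95% interval 1.09 to 1.40) in the Igκ-BCL2 and 1.51 (1.37 to 1.65) in the 3′RR-BCL2 library, against 0.921 (0.668 to 1.24) in WT, whose interval includes 1. Cdkn2d had ratios of 1.05 (0.861 to 1.26) in the Igκ-BCL2 and 1.16 (0.994 to 1.36) in the 3′RR-BCL2 library, against 0.406 (0.163 to 0.839) in WT, where 50 cells held 7 UMIs. With 1 library per genotype the difference between genotypes was not tested.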

How the results depend on the processing

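Over the log2 differences of the genes, 245 values under settings that kept all 3 libraries retained their direction and their side of the threshold, 13 lost a call, 9 gained one and 6 turned round. Every activated-like call over follicular-like cells, the calls of Ccnd2, Cdkn1b and Cdkn2c in non-dividing GC-like cells, of Cdk4 in dividing GC-like cells, of Cdkn2d in marginal zone-like and of Ccnd2 in transitional-like cells held under all alternatives run. For Ccnd2 in non-dividing GC-like cells this holds for the libraries fitted together, as the interval of the WT ratio includes 1. The least stable call was Ccnd2 in marginal zone-like cells, lost under 6 of 11 alternatives. The directions that turned belonged to differences that were not called. They were Cdk4 in transitional-like cells with raised gate limits (-0.038), Cdk6 in marginal zone-like cells with no replicate block (0.060), Cdkn2c in activated-like cells with the looser cell filter (0.088), and Cdkn2d in non-dividing GC-like cells with the looser cell filter (-0.076), DESeq2 (-0.087) or no filter on low counts (-0.057). Leaving out 1 library at a time gave -0.18 to 0.70 for Cdkn2c in marginal zone-like cells and -0.089 to 0.116 for Cdkn2d in non-dividing GC-like cells. The cause was not tested.

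Counts of genes called over all genes were 969 for transitional-like, 1713 for marginal zone-like, 4277 for non-dividing GC-like and 2171 for dividing GC-like cells. Without the library as a replicate block they were 378 for transitional-like and 1025 for marginal zone-like cells, and leaving out 1 library at a time gave 330 to 821, 767 to 1507, 2639 to 3728 and 974 to 1826 in that order, the lowest each time without 3′RR-BCL2, where fewer samples were fitted. The looser cell filter, which admits cells above 20000 UMIs, gave 4568 for dividing GC-like cells. No paired analysis was possible because each genotype has 1 library, so the block pairs stages and not genotypes.

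The difference in Ccnd3 share between non-dividing GC-like and activated-like cells was 50.7 points with gate limits lowered to 0.8 of their value. Leaving out 1 library at a time gave 61.0 to 74.8 points. Gene ratios past 1.5-fold for Igκ-BCL2 over WT numbered 5, and 8 with the looser cell filter or with gate limits at 0.8. In the main setting 10.3% of all genes were past it in follicular-like and 10.4% in activated-like cells. In non-dividing and dividing GC-like cells 24.7% and 16.6% were. No such share was taken for the other settings, so the rise to 8 is not read as a result about these genes. The Ccnd2 ratio of Igκ-BCL2 over WT in activated-like cells was 0.807 and turned to 1.16 with the looser filter. Thinning to 1000 or 4000 UMIs set the mean share of cells with a UMI, 13.0% or 34.97% for Ccnd2 in activated-like cells and 12.4% or 39.1% for Ccnd3 in dividing GC-like cells. With raised gate limits the Igκ-BCL2 library held 19 dividing GC-like cells, under the minimum of 20, so that contrast could not be fitted. Low counts limit the GC-like values of Ccnd2, Cdk6 and Cdkn2c, and the WT GC-like cells most.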

Other observations

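Within dividing GC-like cells, those in which the replication markers of the gate were higher and those in which the mitosis markers were at least as high were compared for Cdk4, Cdkn2d and Ccnd3, given here as values with no test. Cdk4 had 224 CPM in the Igκ-BCL2, 163 in the 3′RR-BCL2 and 199 in the WT library in the cells with higher replication markers (19, 74 and 32 cells), against 108, 82.5 and 89.3 in the others (14, 73 and 22 cells). The values of the replication cells were above those of the others in all 3 libraries. Cdkn2d had 27.2, 45.3 and 41.5 CPM in the replication cells of the Igκ-BCL2, 3′RR-BCL2 and WT libraries, against 144, 107 and 29.8 in the others, so that both BCL2 libraries had more in the mitosis cells and WT did not, its 29.8 coming from 4 UMIs. Ccnd3 had 102, 149 and 166 CPM in the replication cells, against 151, 129 and 134, with no common direction. Median depth was 8406, 11864 and 11725 UMIs in the replication cells, against 8140, 8274 and 5455 in the others, and its part was not tested.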
